A study of Mus musculus with 3 samples.

Results

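Transcripts of 8 genes of interleukin-17 (IL-17) signalling were described here, and IL-17 activity itself was not measured. The receptor chains were Il17ra (ENSMUSG00000002897) and Il17rc (ENSMUSG00000030281), the adaptor Traf3ip2 (ENSMUSG00000019842), and the regulators Nfkbiz (ENSMUSG00000035356) and Zc3h12a (ENSMUSG00000042677). The response genes were Steap4 (ENSMUSG00000012428), Lcn2 (ENSMUSG00000026822) and Saa3 (ENSMUSG00000040026). All 8 genes were taken by symbol, as a set chosen with earlier results of these data known. They are 8 of the 32285 genes in the matrices. The cells came from the quadriceps of wildtype C57BL/6 mice, an inbred laboratory strain. A piece of the muscle had been removed (volumetric muscle loss), the gap was filled with particles of polycaprolactone (PCL), a slowly degrading polyester, and tissue was collected at week 6. Dead cells were depleted, leukocytes (CD45+) and other cells (CD45-) were parted on magnetic columns and recombined in equal parts, and 3′ single-cell libraries were made on the 10x Genomics platform. The 3 libraries, replicates 1, 2 and 3, form 1 group with no untreated, sham or cytokine-treated counterpart, so classes of cells were compared within libraries. Separate animals are not named for the replicates, and p-values therefore cover only the scatter among these 3 libraries, part of which may be technical.

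IL-17A and IL-17F are cytokines made mainly by lymphocytes that carry the transcription factor RORγt. They bind a receptor of the chains IL-17RA and IL-17RC, which recruits the adaptor Act1, the product of Traf3ip2, and through it TRAF6 and the NF-κB and C/EBP transcription factors. IL-17 signalling is known in barrier tissues for neutrophil-attracting chemokines and antimicrobial proteins, and in stromal cells for inflammation and fibrosis.

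The libraries held 4996 to 8643 barcodes, 104482261 to 192348779 UMIs (unique molecular identifiers, each 1 captured molecule) and medians of 17008.5 to 20286 UMIs per barcode. After filtering, 17955 cells were kept, and 20 classes were named from marker genes, 13 of them with at least 20 cells in every library. Each of these 13 had 0 of its own markers at 0, though the names rest on the same marker lists, and the members had no part in the clustering. Fibroblast-like cells numbered 10201 (54.5% ± 15.3, SD, n = 3), with a median of 26083 UMIs, against 12308 in macrophage-like and 5030.5 in neutrophil-like cells. Levels below are CPM, counts of a gene per 1000000 UMIs summed over the cells of a class in 1 library, as mean ± SD over n = 3 libraries. CPM are not scaled for gene length and were compared within genes only.

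Il17ra was present in immune-like and stromal-like classes, and among the 13 larger classes its levels were highest in neutrophil-like and monocyte-like cells and low in blood endothelium. Il17ra, the chain shared by several IL-17 receptors, was at 136, 136 and 109 CPM in neutrophil-like cells of replicates 1, 2 and 3 and at 157, 114 and 104 CPM in monocyte-like cells. In fibroblast-like cells it was at 73.6, 78.7 and 80.0 CPM (77.4 ± 3.38). The fibroblast-like libraries lay within a narrow band, below every neutrophil-like and monocyte-like library. Mural-like cells, which line vessel walls as pericytes and smooth muscle, came next at 84.8, 77.3 and 48.0 CPM, then lymphatic endothelial-like cells at 66.4 ± 5.67 and T-like cells at 64.3 ± 6.29 CPM. Macrophage-like cells had 43.2 ± 1.83 CPM, endothelial-like cells of blood vessels 10.2 ± 0.612 CPM, and muscle fibre-like cells, with a median of 1528 UMIs, 2 UMIs in all. In the order of the 13 classes the ranges over libraries did not overlap at 3 steps, from monocyte-like to fibroblast-like, from cDC2-like (a dendritic cell class) to Schwann-like and from endothelial-like to muscle fibre-like. All other neighbours overlapped. Of classes under 20 cells in some library, 36 plasmacytoid dendritic-like cells had 142 ± 50.7 CPM (74 UMIs) and 53 satellite- or myoblast-like cells 122.5 ± 30.8 CPM (75 UMIs).

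The partner chain Il17rc, which with Il17ra forms the receptor for IL-17A and IL-17F, was found mainly in stromal-like classes. It was at 17.6, 16.6 and 16.6 CPM in fibroblast-like cells of replicates 1, 2 and 3 and at 28.0, 18.6 and 27.2 CPM in mural-like cells. In macrophage-like cells it was at 0.507, 0.233 and 0.336 CPM, from 20 UMIs in 3211 cells. Every library of the 6 stromal-like classes other than muscle fibre stood above every library of the immune-like classes, and the break in the order lay between lymphatic endothelial-like (11.7 ± 0.948) and T-like cells (2.48 ± 2.75). No Il17rc UMI was found in cDC1-like cells, another dendritic cell class, or in muscle fibre-like cells. A count of 0 allows up to 5.89 and 14.7 CPM there in the shallowest library (3 counts), so the latter class could hold a stromal-like level undetected.

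Traf3ip2 encodes Act1, the adaptor that links the receptor to TRAF proteins. It was at 35.8, 22.1 and 55.1 CPM in T-like cells of replicates 1, 2 and 3, at 26.6, 23.0 and 25.1 CPM in mural-like cells and at 21.6, 16.2 and 18.3 CPM in fibroblast-like cells. The T-like libraries spread widely and overlapped the mural-like ones, while mural-like and fibroblast-like libraries did not overlap. Macrophage-like cells had 6.68 ± 0.143 CPM and neutrophil-like cells 1.85 ± 0.917 CPM, the latter from 10 UMIs. Among classes under 20 cells in some library, 21 innate lymphoid 2-like cells had 173 ± 27.3 CPM (33 UMIs).

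Nfkbiz encodes IκBζ, a nuclear cofactor of NF-κB that is induced by IL-17 and by other inflammatory signals. It was at 1279, 1301 and 1175 CPM in neutrophil-like cells of replicates 1, 2 and 3, at 508, 701 and 551 CPM in mural-like cells, and at 336, 438 and 384 CPM in fibroblast-like cells. Neutrophil-like libraries stood above all libraries of the other 12 classes, and macrophage-like cells had 145 ± 13.9 CPM. Zc3h12a encodes Regnase-1, an RNase that degrades inflammatory transcripts and limits IL-17 signalling. It was at 179, 209.7 and 159.8 CPM in neutrophil-like cells, at 76.0 ± 3.69 CPM in macrophage-like cells and at 23.2, 26.7 and 21.8 CPM in fibroblast-like cells. The fibroblast-like libraries were thus below every macrophage-like and neutrophil-like library for Zc3h12a, while for Nfkbiz they were above the macrophage-like ones. Of classes under 20 cells in some library, 25 basophil-like cells had 2819 ± 709 CPM of Nfkbiz and 693 ± 268 CPM of Zc3h12a.

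The response genes had 3 different class patterns. Steap4, a metalloreductase of the cell membrane, was at 698, 864 and 557 CPM in mural-like cells of replicates 1, 2 and 3 and at 169.7, 189.7 and 150.7 CPM in fibroblast-like cells. Mural-like libraries were all above fibroblast-like ones, and macrophage-like cells had 3.42 ± 1.70 CPM. Steap4 in Schwann-like cells was uneven, at 12.3, 160.1 and 27.0 CPM, and there the sum of the 7 fibroblast markers was 4351, 22232 and 12124 CPM, highest in the same library. Its part in that level was not tested.

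Lcn2, which encodes lipocalin-2, an iron-siderophore binding protein of neutrophil granules and epithelia, was at 815, 623 and 594 CPM in neutrophil-like cells and at 343, 208 and 201 CPM in lymphatic endothelial-like cells. These 2 classes overlapped neither each other nor any other class. In lymphatic endothelial-like cells the 8 neutrophil markers summed to 61.6, 31.9 and 22.7 CPM, with Retnlg and Ly6g at 0, against 76741 CPM in neutrophil-like cells. Monocyte-like cells had Lcn2 at 81.4, 39.3 and 29.5 CPM, and their neutrophil markers summed to 8666, 4607 and 2257 CPM, in the same order of libraries. Whether neutrophil RNA contributed there was not tested. Fibroblast-like cells had 7.52, 5.12 and 3.43 CPM, and mural-like cells had no UMI, which allows up to 2.21 CPM (3 counts) in the shallowest library.

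Saa3, an acute-phase serum amyloid A protein made outside the liver, was at 437, 470 and 215 CPM in fibroblast-like cells of replicates 1, 2 and 3. Macrophage-like cells followed at 20.2, 16.6 and 12.2 CPM, and the means of the other 11 classes were 10.6 CPM or less. Replicate 3 had the lowest Saa3 level in both classes, and every fibroblast-like library was above every library of the other classes. The 7 fibroblast markers summed to 554 to 1048 CPM in macrophage-like cells and to 575 to 1103 CPM in neutrophil-like cells, where Saa3 was at 8.66 ± 5.55 CPM.

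**Figure D1:**
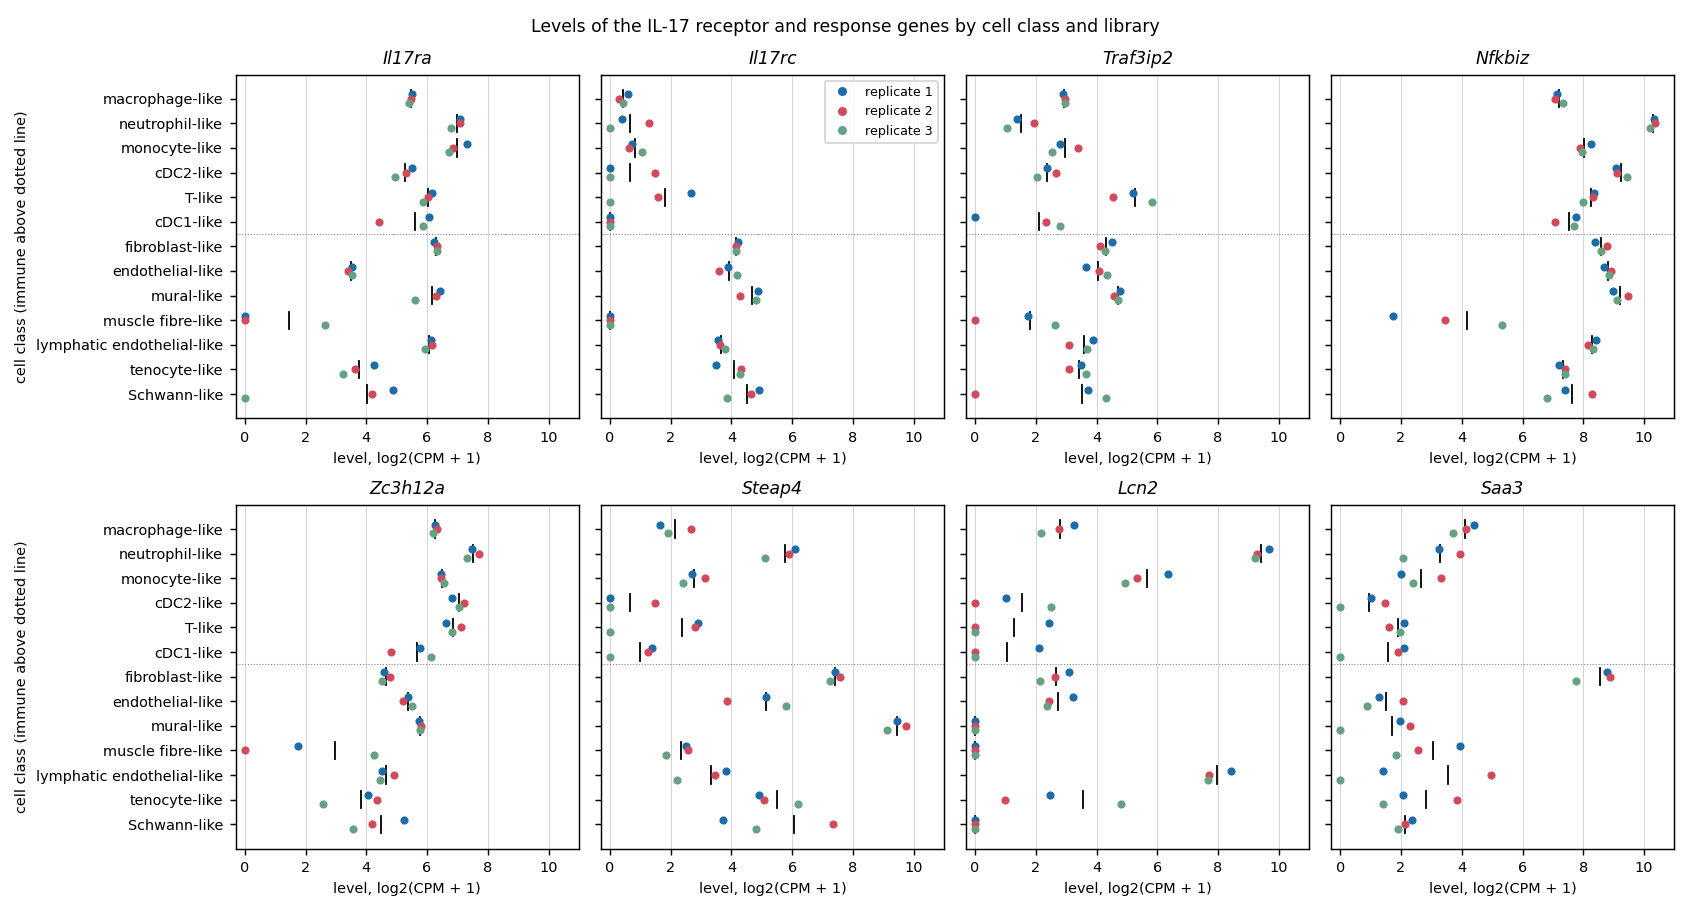
Level of each of the 8 genes, as log2(CPM + 1), in 13 cell classes; each point is 1 library and the black tick is the mean CPM of 3 libraries on the same scale. Il17rc is near 0 in the immune-like classes, Lcn2 stands out in neutrophil-like and lymphatic endothelial-like cells, and Saa3 in fibroblast-like cells at 215 to 470 CPM.

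Shares of cells with a UMI depend on depth, so cells were also thinned to 1000 UMIs each, leaving out shallower cells. Saa3 was then found in 7.70% ± 2.03 of 10017 fibroblast-like cells (184 left out), against 1.90% of macrophage-like and 0.287% of 764 endothelial-like cells. The unthinned shares were 18.9%, 9.09% and 2.42%, at median depths of 26083, 12308 and 9054 UMIs. The thinned shares in other classes that had the gene at all were 0.437% in neutrophil-like, 0.66% in mural-like, 0.73% in monocyte-like, 1.01% in cDC1-like and 1.09% in muscle fibre-like cells. Whether free RNA gave the macrophage-like share was not tested. Lcn2 was found in 30.7% of neutrophil-like and 17.2% ± 6.15 of lymphatic endothelial-like cells at 1000 UMIs (50.1% and 75.7% unthinned), against 0.587% of fibroblast-like cells (4.77%). Steap4 was found in 37.8% of mural-like and 15.3% of fibroblast-like cells (75.0% and 71.6% unthinned), against 0.562% of macrophage-like cells (4.04%). The near-equal unthinned shares of Steap4 go with the greater depth of fibroblast-like cells. Il17rc was found in 1.63% of fibroblast-like cells (34.4% unthinned) and in 0.299% of neutrophil-like cells (0.283%). Il17ra was found in 7.70% of fibroblast-like, 8.88% of neutrophil-like and 0.615% of endothelial-like cells (66.7%, 36.6% and 7.58% unthinned). Its thinned shares were highest in T-like and monocyte-like cells, at 11.8% and 10.8% (56.2% and 62.0% unthinned).

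Immune-like sums were set against stromal-like sums over the whole table of 17654 genes, with the library as a block, and a call needed both an adjusted p under 0.05 and a log2 difference of 1 or more in size. Of the 8 members, 2 were higher in immune-like cells (19.4% of all genes tested) and 4 were lower (29.7% of all genes tested). Their median log2 difference was −0.81, against −0.12 over all genes. Il17rc was at 0.633, 0.561 and 0.391 CPM in immune-like and 17.2, 16.4 and 16.7 CPM in stromal-like sums of replicates 1, 2 and 3 (log2 −4.91, SE 0.16). The 2 ranges were far apart, as were those of Steap4, at 7.76 ± 3.44 against 168 ± 19.3 CPM (log2 −4.44, SE 0.21), and Saa3, at 12.8 ± 2.53 against 339 ± 127 CPM (log2 −4.61, SE 0.18). Traf3ip2 was at 7.40 ± 0.255 against 18.3 ± 2.35 CPM (log2 −1.26, SE 0.10). Zc3h12a (91.5 ± 10.2 against 25.1 ± 2.04 CPM, log2 1.92, SE 0.06) and Lcn2 (89.2, 71.9 and 30.1 against 14.1, 8.06 and 6.52 CPM, log2 2.74, SE 0.16) were higher in immune-like cells. By edgeR's quasi-likelihood test, p after Benjamini-Hochberg adjustment was 6.82e-07 for Il17rc, 4.58e-05 for Traf3ip2, 7.07e-07 for Zc3h12a, 3.77e-06 for Steap4, 9.37e-06 for Lcn2 and 1.30e-06 for Saa3, and 3 of 3 libraries had the stated direction for each. Il17ra (60.8 ± 10.5 against 73.4 ± 3.79 CPM, log2 −0.23) and Nfkbiz (289 ± 37.8 against 386 ± 49.1 CPM, log2 −0.37) were not called, and with classes weighted equally their log2 differences were 1.17, then called, and 0.75. Equal weights ended the call of Traf3ip2 (log2 −0.26) and moved Lcn2 to 1.82 and Saa3 to −3.10.

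Fibroblast-like cells were set against the other stromal-like cells, with 16843 genes tested. Of the 8 members, 2 were higher (13.4% of all genes tested) and 1 was lower (16.9% of all genes tested). Il17ra was at 73.6, 78.7 and 80.0 CPM in fibroblast-like cells and at 34.9, 35.9 and 29.4 CPM in the other sums (log2 1.43, SE 0.09). Saa3 was at 374 ± 139 against 4.87 ± 5.58 CPM (log2 6.50, SE 0.36), and Lcn2 at 5.36 ± 2.06 against 49.4 ± 12.6 CPM (log2 −3.01, SE 0.10). In none of these 3 genes did the libraries of the 2 sides overlap. By edgeR's quasi-likelihood test, p after Benjamini-Hochberg adjustment was 2.58e-05 for Il17ra, 1.50e-05 for Saa3 and 1.76e-06 for Lcn2, with 3 of 3 libraries in that direction for each. The other side holds the lymphatic endothelial-like cells that carried most of its Lcn2. Il17rc, Traf3ip2, Nfkbiz, Zc3h12a and Steap4 had log2 differences of 0.40, 0.56, 0.25, −0.37 and 0.44 and were not called. The Saa3 difference was log2 7.84 without replicate 2, in which the other side held 125 Saa3 UMIs against 26 and 6 in replicates 1 and 3, 7.10 with DESeq2 and 4.59 without doublet removal.

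Endothelial-like cells of blood vessels were set against the other stromal-like cells, with 16318 genes tested. None of the 8 members was called higher by edgeR (12.8% of all genes tested) or by DESeq2, and 3 were lower (20.4% of all genes tested). Zc3h12a alone had a positive difference at an adjusted p under 0.05 (0.00597 by edgeR's quasi-likelihood test). Its log2 of 0.56 was short of the size needed for a call. Il17ra was at 10.6, 9.49 and 10.5 CPM in endothelial-like and 72.4, 77.4 and 77.8 CPM in the other sums (log2 −3.04, SE 0.11). Steap4 was at 34.5, 13.4 and 54.4 CPM against 170.2, 194 and 154 CPM (log2 −2.61, SE 0.35), and Saa3 at 1.81 ± 1.21 against 353 ± 132 CPM (log2 −7.77, SE 0.19). The libraries of the 2 sides did not overlap for any of the 3. By edgeR's quasi-likelihood test, p after Benjamini-Hochberg adjustment was 1.92e-07 for Il17ra, 0.000402 for Steap4 and 3.43e-08 for Saa3, with 3 of 3 libraries in that direction for each. Il17rc (14.0 ± 3.11 against 16.9 ± 0.472 CPM, log2 −0.45) stayed below the size needed for a call. With classes weighted equally Il17ra was at log2 −2.07 and Saa3 at −5.30, and without doublet removal Steap4 was at log2 −1.91 and Saa3 at −5.89. Lcn2, at 5.64 ± 2.36 against 9.73 ± 4.14 CPM (log2 −0.94), was not called, and was called lower at −3.03 with classes weighted equally.

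Macrophage-like cells were set against the other immune-like cells, with 12782 genes tested, a filter that left out Il17rc. Of the 7 members tested, 1 was higher (11.3% of all genes tested) and 4 were lower (17.7% of all genes tested). Nfkbiz was at 140, 135 and 161 CPM in macrophage-like and 633, 604 and 545 CPM in the other sums (log2 −2.05, SE 0.12). Lcn2 was at 5.91 ± 2.50 against 185 ± 70.2 CPM (log2 −5.02), and Steap4 at 3.42 ± 1.70 against 16.5 ± 7.76 CPM (log2 −2.39). The other side holds the neutrophil-like cells, in which all 3 genes were far above the macrophage-like level. Saa3 was higher in macrophage-like cells, at 20.2, 16.6 and 12.2 against 4.23, 8.13 and 2.71 CPM (log2 1.76, SE 0.23). Traf3ip2 (log2 −0.46) and Zc3h12a (log2 −0.72) were not called. By edgeR's quasi-likelihood test, p after Benjamini-Hochberg adjustment was 1.47e-06 for Nfkbiz, 2.61e-08 for Lcn2, 0.00034 for Steap4, 0.000156 for Saa3 and 6.69e-05 for Il17ra, with 3 of 3 libraries in that direction for each. Il17ra, at log2 −1.20, fell short of the fold threshold without replicate 1 (log2 −0.96) and with classes weighted equally (log2 −0.86). Steap4 was at log2 −1.63 without replicate 1 and −1.11 without doublet removal.

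Neutrophil-like cells were set against the other immune-like cells, with 12278 genes tested, again without Il17rc. Of the 7 members tested, 5 were higher (23.3% of all genes tested) and 1 was lower (34.2% of all genes tested). Lcn2 was at 815, 623 and 594 CPM against 18.8, 12.1 and 6.34 CPM (log2 6.71). Steap4, at 53.0 ± 17.7 against 3.73 ± 1.44 CPM (log2 4.75), and Nfkbiz, at 1252 ± 67.5 against 208 ± 6.13 CPM (log2 3.43), were also higher, with no overlap of libraries. Il17ra (127 ± 15.3 against 55.2 ± 8.45 CPM, log2 2.05, SE 0.14) and Zc3h12a (183 ± 25.2 against 83.6 ± 6.29 CPM, log2 1.98) were higher as well. By edgeR's quasi-likelihood test, p after Benjamini-Hochberg adjustment was 5.78e-31 for Lcn2, 1.45e-20 for Steap4, 4.56e-25 for Nfkbiz, 5.38e-17 for Il17ra and 5.21e-17 for Zc3h12a, with 3 of 3 libraries in that direction for each. Each fit left 2 residual degrees of freedom. Variance shared over genes added 38.4 here, against 4.26 to 6.80 in the other comparisons. The small p-values here thus rest mostly on other genes, and their size cannot be set against that in the other comparisons. TMM scaling placed the median of all genes at log2 −0.40, and library totals alone at −1.27, with 1570 genes higher and 6517 lower in place of 2857 and 4202. With totals alone the 5 members were still called, at log2 5.85 for Lcn2, 3.88 for Steap4, 2.59 for Nfkbiz, 1.20 for Il17ra and 1.12 for Zc3h12a. Traf3ip2 was called lower, at 1.85 ± 0.917 against 7.84 ± 0.229 CPM (log2 −1.19), from 10 UMIs in neutrophil-like cells. Its adjusted p, by edgeR's quasi-likelihood test with Benjamini-Hochberg adjustment, was 0.0369. It lost the call without replicate 1 or 3, with DESeq2, without doublet removal and with at least 1000 genes per cell, at adjusted p-values of 0.0519 to 0.193 (edgeR, or 0.13 by DESeq2). Saa3 (8.66 ± 5.55 against 13.1 ± 2.68 CPM) was not called, and its log2 difference of 0.25 was −0.62 with totals alone.

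**Figure D2:**
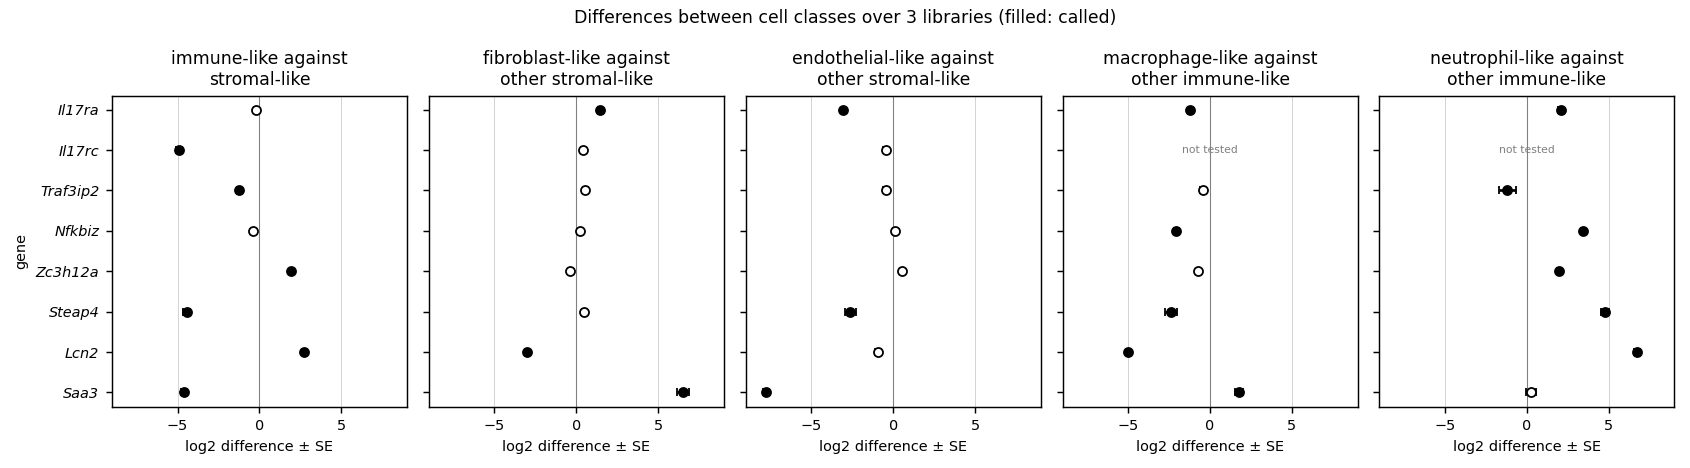
Log2 difference ± SE of each member in the 5 comparisons, with filled points for called genes. Steap4 and Lcn2 are lower in macrophage-like and higher in neutrophil-like cells than in the other immune-like cells, and Saa3 reaches 6.50 in fibroblast-like and −7.77 in endothelial-like cells against other stromal-like cells.

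The wider pathway was described by lists of signalling genes, negative regulators, other response genes and ligands. Of 17 other genes that IL-17 is known to induce, 13 were lower in immune-like than in stromal-like cells (29.7% of all genes tested) and 1 was higher (19.4% of all genes tested), with a median log2 of −2.49, against −0.12 over all genes. The higher gene was Cxcl2, a neutrophil chemokine, at 2827 ± 554 against 46.1 ± 10.2 CPM (log2 6.00). Among the lower ones were Mmp3, a matrix protease, at 13.6 ± 5.01 against 765 ± 116 CPM (log2 −5.81), and Cxcl5, another neutrophil chemokine, at 12.1 ± 1.48 against 208 ± 46.6 CPM (log2 −4.03). Ccl20, Saa1 and Saa2 were lower too, but at 1.97, 1.63 and 0.437 CPM in stromal-like cells. Saa1 and Saa2 are near-identical copies whose counts are uncertain. By class, the 17 genes summed highest in neutrophil-like cells, at 18778 ± 310 CPM. The sum was 5852 ± 802 CPM in fibroblast-like, 2509 ± 255 in macrophage-like and 393 ± 124 in endothelial-like cells. The counts of genes called thus do not give the class with the highest total. Of 16 signalling genes 7 were higher in immune-like cells and 1 was lower (median log2 0.73), against the same 19.4% and 29.7% of all genes. The inflammatory transcription factor genes Cebpb and Cebpd split, at log2 2.28 and −3.99. Of 6 negative regulators, beside those shares, 3 were higher, among them Tnfaip3, the NF-κB inhibitor A20, at log2 1.85, and 1 was lower, Traf4 at log2 −2.60. Il17rd, another receptor of the family, was at 0.718 ± 0.107 against 23.6 ± 0.774 CPM (log2 −5.02).

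Against the rest of the stroma, fibroblast-like cells had 14 of 16 tested response genes higher (13.4% of all genes tested) and 1 lower (16.9% of all genes tested), with a median log2 of 3.88, against −0.00057 over all genes. Cxcl5 was at 228 ± 50.1 against 4.07 ± 1.33 CPM (log2 6.08), and Hp, the haemoglobin-binding haptoglobin, at 79.3 ± 22.9 against 4.28 ± 3.18 CPM (log2 4.43). Csf2, the growth factor GM-CSF, had no UMI in the other stromal-like cells and was at least 21.6-fold higher at 2.30 ± 1.04 CPM, with 3 counts over the group as the floor. Csf3, the neutrophil growth factor G-CSF, was the lower one, at 0.714 ± 0.377 against 26.1 ± 11.1 CPM (log2 −4.97). In endothelial-like cells the same list had 14 of 16 lower (20.4% of all genes tested) and Csf3 alone higher (12.8% of all genes tested), at 64.7 ± 27.1 against 0.679 ± 0.366 CPM (log2 6.42). Of the 16 signalling genes, 2 were higher in fibroblast-like cells, Ikbke and Nfkb1, at log2 1.62 and 1.52, and 4 were lower in endothelial-like cells. In neutrophil-like cells 10 of 16 signalling genes and 4 of 6 negative regulators were higher than in other immune-like cells (23.3% of all genes tested), with Nfkbia, the NF-κB inhibitor IκBα, at log2 3.35, and 1 signalling gene, Traf5, was lower (34.2% of all genes tested). Of the 12 response genes tested there, 5 were higher and 1 was lower (median log2 0.096, against −0.40 over all genes). In macrophage-like cells 3 of the 12 were higher (11.3% of all genes tested) and 4 lower (17.7% of all genes tested), as were 1 and 4 of the signalling genes and 0 and 3 of the negative regulators. The 12 dissociation stress genes, which tissue digestion can induce, included 1 that was higher and 6 that were lower on the immune-like side, where 19.4% and 29.7% of all genes were. In fibroblast-like cells 0 were higher and 1 was lower (13.4% and 16.9% of all genes), in endothelial-like cells 1 and 1 (12.8% and 20.4%), in macrophage-like cells 2 and 4 (11.3% and 17.7%), and in neutrophil-like cells 7 and 2 (23.3% and 34.2%). They summed to 11214 CPM in fibroblast-like, 8105 in neutrophil-like and 4910 in macrophage-like cells, and their part in the levels of Nfkbiz and Zc3h12a was not tested.

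Cells with transcripts of the ligand were few. Il17a UMIs were found in 9 of 112 T-like cells (8.04%, exact 95% interval 3.74 to 14.7%), 2, 7 and 0 of them in replicates 1, 2 and 3, with 39 UMIs in all. They were also found in 1 of 10201 fibroblast-like cells, with 1 UMI, and 1 of 3211 macrophage-like cells, with 6 UMIs. One T-like cluster of 37 cells, led by Themis, Grap2 and Cd28 with Il23r among its top genes, held 34 of the 39 UMIs in 5 cells. Another of 46 cells, with 5 UMIs, was led by Igkc and Ighm of B cells. Il17f had UMIs in 3 of 112 T-like cells (8 UMIs), in 20 of 10201 fibroblast-like cells (24 UMIs) and in 3 of 3211 macrophage-like cells (4 UMIs). In T-like cells Il23r, the receptor of the cytokine that maintains IL-17-producing cells, was found in 31 and Ccr6, their chemokine receptor, in 26. Il17d, a family member of less known function, was found in 22.1% of fibroblast-like cells and 20.4% of mural-like cells, against 0.467% of macrophage-like cells, which were shallower. Intervals cover counting error only.

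Co-detection was measured in 9613 fibroblast-like cells thinned to 5000 UMIs each, with 588 shallower cells left out. Nfkbiz was found in 73.5% ± 5.36 of these cells, Steap4 in 44.8% ± 3.53, Il17ra in 29.6% ± 0.925, Saa3 in 11.9% ± 2.86, Zc3h12a in 11.6% ± 1.20, Traf3ip2 in 9.26% ± 1.36, Il17rc in 7.87% ± 0.581 and Lcn2 in 1.72% ± 0.559. The top 10% of cells held 98.8% of Saa3 UMIs and 32.4% of Nfkbiz UMIs. In a library where a gene is found in 10% of cells or fewer, this share is 100%, so it does not set Saa3 apart. It was 100% for Il17rc and Lcn2, 97.8% for Traf3ip2 and 88.5% for Zc3h12a. The largest count in 1 cell was 210 for Saa3, against 25 for Nfkbiz, the next highest. Of the 8 members, none was found in 10.3% ± 1.77 of cells, 1 in 28.8%, 2 in 32.2%, 3 in 19.8%, 4 in 7.14% and 5 in 1.53%. Another 24 cells had 6 members, 2 cells had 7, and no cell had all 8.

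Response genes were found together more often than the product of their shares. In cells with a Lcn2 UMI, Saa3 was found in 52.5% (mean of 3 libraries), against 11.2% of cells without one. The log2 odds ratio was 2.89, 3.39 and 3.21 in replicates 1, 2 and 3, from 25, 57 and 11 cells with both. For Steap4 and Saa3 it was 1.97, 1.85 and 1.30, both genes being in 8.40% of cells against a product of 5.40%, and for Steap4 and Lcn2 it was 2.25, 2.38 and 1.02. All 3 pairs were above 0 in every library, and replicate 3 was lowest in both pairs with Steap4. Compared within the 10 clusters of fibroblast-like cells and pooled over them (Mantel-Haenszel odds ratio, chosen after seeing the data), Lcn2 and Saa3 were at 1.89, 2.26 and 2.37. Steap4 and Saa3 were then at 1.39, 1.05 and 0.30, and Steap4 and Lcn2 at 1.19, 1.24 and 0.098, all 3 pairs still above 0 in every library but lower than over all cells. All pairs share cells and libraries, and ratios at equal depth are descriptions without a test.

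The receptor chains were not found together more often than their product. Il17ra and Il17rc were in the same cell in 2.25% ± 0.169 of cells against a product of 2.33% ± 0.113, with log2 odds ratios of −0.34, −0.02 and 0.18, which lie on both sides of 0. Il17rc and Steap4 were below 0 in every library (−0.36, −0.33 and −0.25), as were Il17rc and Saa3 (−0.09, −0.20 and −0.15). Pooled over clusters the former stayed below 0 in every library (−0.23, −0.067 and −0.13) and the latter lay on both sides of 0 (−0.095, 0.11 and 0.0051). Il17ra was paired with Nfkbiz at 0.80, 1.01 and 0.79 and with Saa3 at 0.33, 0.24 and 0.98. After pooling over clusters, Il17ra with Nfkbiz stayed above 0 in every library (0.58, 0.73 and 0.45). Il17ra with Saa3 then lay on both sides of 0 (−0.041, −0.017 and 0.62). Over all cells, 19 of the 28 pairs were above 0 in every library and 2 below, and not all stayed so after pooling. At 5000 UMIs a cell with 1 chain of the receptor may hold the other undetected, which limits what these shares say of single cells.

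**Figure D3:**
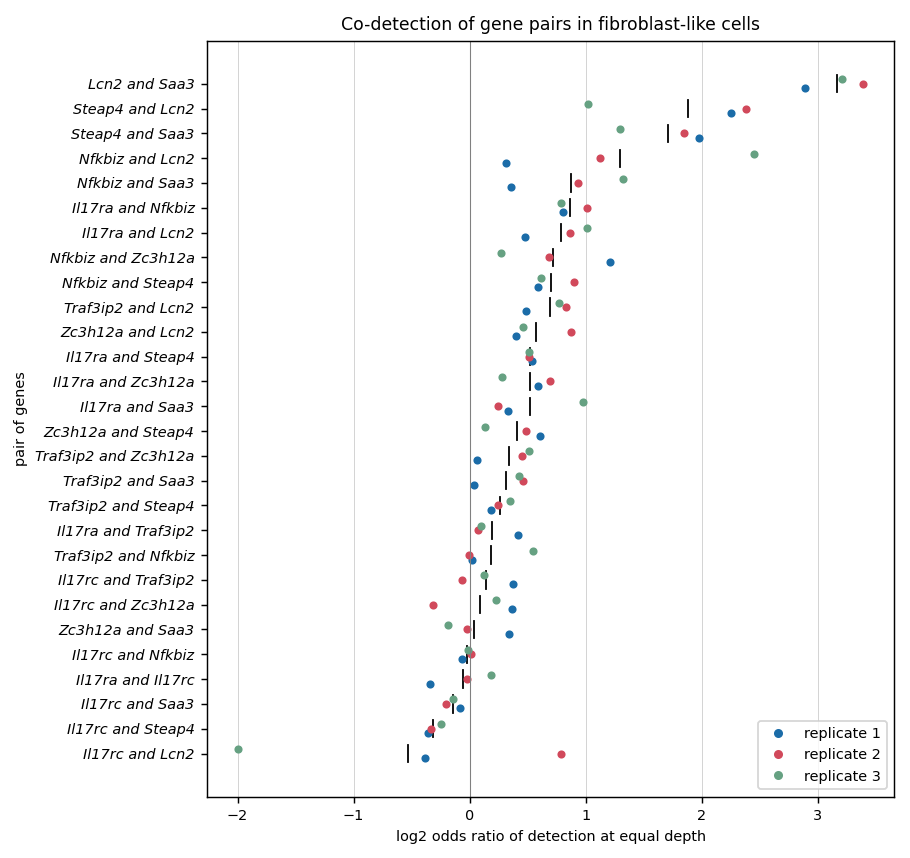
Log2 odds ratio of detection for the 28 pairs of members in fibroblast-like cells thinned to 5000 UMIs; points are the 3 libraries and the black tick is their mean. Lcn2 with Saa3 (2.89 to 3.39) and the pairs of Steap4 with Lcn2 or Saa3 lie farthest above 0. Il17rc with Steap4 and with Saa3 lies below 0 in every library. The other pairs of Il17rc lie on both sides of 0, with a wide spread for Lcn2.

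The 3 response genes differ in the sequence before their start sites, shown here because they were found together in the same cells. The runs below are the 250 bases before the start, 5′ to 3′ on the gene's strand, from RefSeq (GRCm38.p6), which held promoters for 5 of the 8 members. Capitals mark matches to the NF-κB motif or to the C/EBP motif TTNNGNAA, searched on both strands.
Steap4: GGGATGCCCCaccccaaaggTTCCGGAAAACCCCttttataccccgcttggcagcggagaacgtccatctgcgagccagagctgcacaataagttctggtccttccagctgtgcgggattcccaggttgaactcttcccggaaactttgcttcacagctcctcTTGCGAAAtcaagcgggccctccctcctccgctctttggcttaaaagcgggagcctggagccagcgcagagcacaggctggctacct
Lcn2: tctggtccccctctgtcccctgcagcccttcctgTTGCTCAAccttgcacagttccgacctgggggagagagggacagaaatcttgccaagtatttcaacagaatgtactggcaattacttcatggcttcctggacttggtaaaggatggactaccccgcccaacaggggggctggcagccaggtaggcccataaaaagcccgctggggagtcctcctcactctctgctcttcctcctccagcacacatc
Saa3: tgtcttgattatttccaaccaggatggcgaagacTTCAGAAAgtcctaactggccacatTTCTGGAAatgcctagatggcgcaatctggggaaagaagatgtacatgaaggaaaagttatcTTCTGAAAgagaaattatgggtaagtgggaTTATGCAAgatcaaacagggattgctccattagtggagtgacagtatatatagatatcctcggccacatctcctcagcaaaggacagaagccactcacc
Steap4 (chr5:7960222-7960471, plus strand) held 2 NF-κB matches, at −250 to −241 and −226 to −217, and 2 C/EBP matches, at −230 to −223, where it overlaps the second NF-κB match, and at −87 to −80. Lcn2 (chr2:32387740-32387989, minus strand) held 1 C/EBP match at −216 to −209 and no NF-κB match. Saa3 (chr7:46715677-46715926, minus strand) held 4 C/EBP matches, the nearest at −99 to −92, and no NF-κB match. Over 32851 promoters of the same length, 3.90% held the NF-κB motif, 36.8% the C/EBP motif and 6.75% the AP-1 motif TGANTCA, which none of the 3 held. A match is a description of letters in this window and says nothing of binding.

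Fibroblast-like cells fell into 10 clusters, which had been built without the members, and the response genes were highest in 1 of them. The leading genes named here were ranked with the members left out. Against clusters of other classes, Saa3 was the top gene of cluster 2. Cluster 2, 1693 cells led by Kirrel3, Cxcl12, Cxcl10, Hp, Tnfsf8 and Mmp3 relative to other fibroblast-like cells, had Saa3 at 1824, 1951 and 954 CPM in replicates 1, 2 and 3. It held 16.6% of fibroblast-like cells, 65.9% of their Saa3 UMIs and 66.6% of their Lcn2 UMIs. Cluster 4, led by Spp1, Cxcl5 and Mmp13, had 352 ± 122 CPM of Saa3 and cluster 3, led by Ccl8, 290.1 ± 145 CPM, while cluster 8, led by Car8 and Akr1c18, had 2.13 ± 1.87 CPM. Every cluster 2 library was above every library of the other 9 clusters for Saa3, and replicate 3 was lowest in cluster 2, as it was over all fibroblast-like cells. Lcn2 in cluster 2 was at 36.7, 20.7 and 12.5 CPM, and the next cluster mean was 4.66 CPM. Steap4 was at 391 ± 44.0 CPM in cluster 2, 238 ± 32.4 in cluster 7 and 54.3 ± 14.8 in cluster 8.

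The receptor chains did not follow that order. Il17ra was at 136, 159 and 152 CPM in cluster 8 (mean 149), 137 ± 9.70 in cluster 5 (led by Pcolce2, Anxa3 and Dpp4) and 131 ± 7.77 in cluster 2, whose ranges overlapped in part, and at 26.3 ± 0.880 in cluster 6 (led by Phactr1 and Cdh13). Cluster 8 thus had a high Il17ra level and the lowest Saa3 level. Il17rc ranged only from 12.03 CPM in cluster 0 to 22.3 in cluster 8, a ratio of 1.85. Nfkbiz was at 550 ± 115, 525 ± 75.4 and 499 ± 34.2 CPM in clusters 2, 8 and 5, the same 3 clusters that had the most Il17ra. Traf3ip2 and Zc3h12a were highest in cluster 7 (led by Lsamp and Frmpd4), at 36.4 ± 5.99 and 47.2 ± 9.40 CPM. Cluster 20, of 279 cells with a median of 1009 UMIs, was led by Lyz2, a gene of phagocytes, and had the lowest Il17ra level, 11.1 ± 2.11 CPM from 6 UMIs. Cluster 15 was led by cell cycle genes, Top2a and Mki67. Clusters are parts of the same libraries, and no test was made between them.

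**Figure D4:**
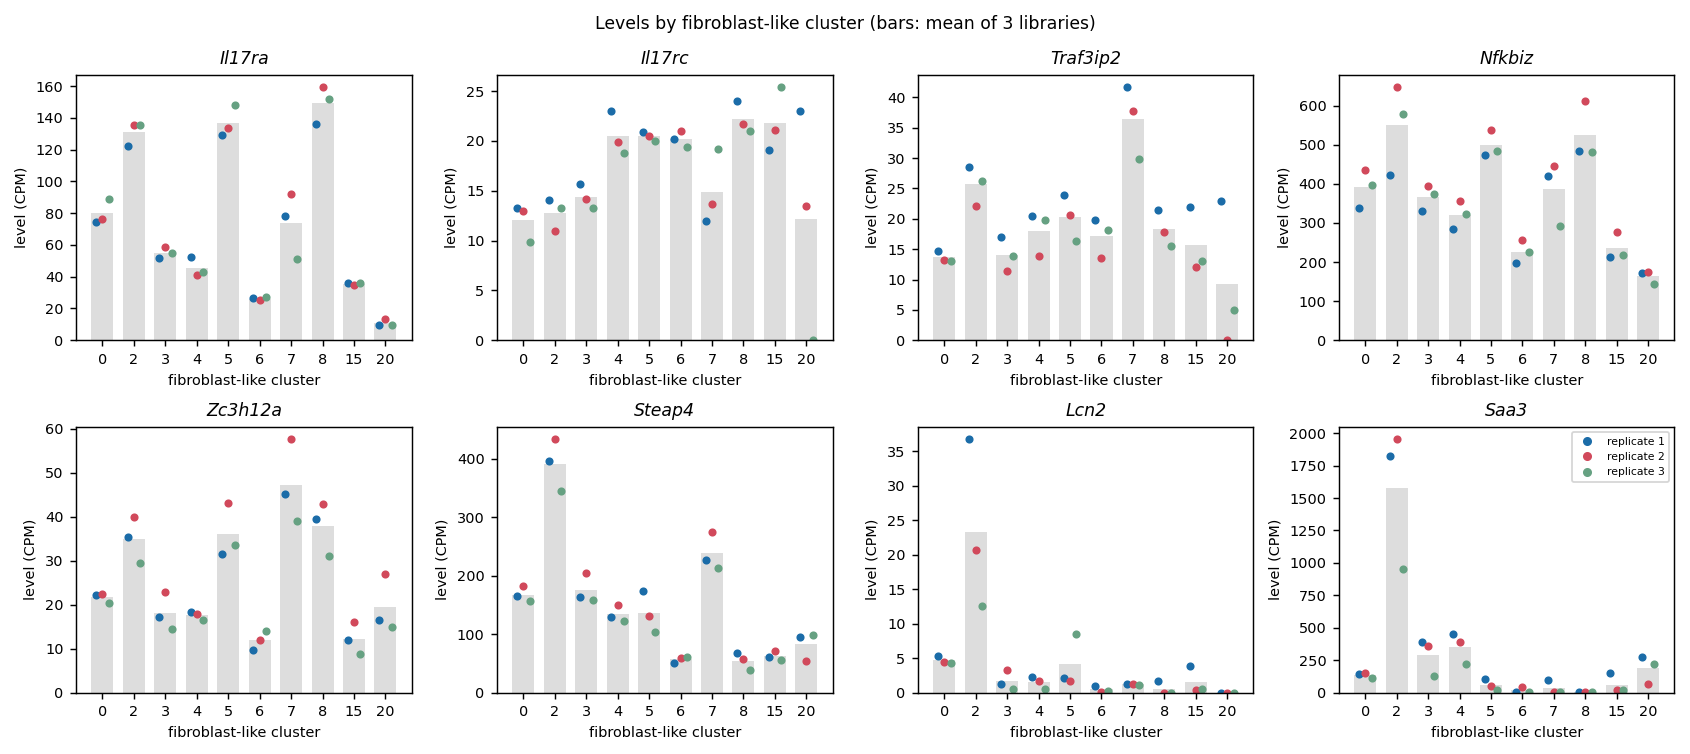
Level in CPM of each member in the 10 clusters of fibroblast-like cells; bars are means of 3 libraries and points are libraries. Saa3, Lcn2 and Steap4 are highest in cluster 2, Il17ra in clusters 8, 5 and 2, and Il17rc varies by a ratio of 1.85 between its highest and lowest cluster.

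Saa3 and Lcn2 differed between libraries more than the receptor chains did. In fibroblast-like cells the highest library over the lowest was 2.19 for Saa3 and 2.19 for Lcn2, 1.34 for Traf3ip2, 1.30 for Nfkbiz, 1.26 for Steap4, 1.22 for Zc3h12a, 1.09 for Il17ra and 1.06 for Il17rc. Over 8541 genes at 10 CPM or more the median ratio was 1.12, and 0.421% of them had a larger ratio than Saa3. Lcn2 was below 10 CPM, where counting error adds to the ratio. Replicate 3 was lowest for Saa3, Lcn2, Steap4 and Zc3h12a, and replicate 1 for Nfkbiz. The mix of fibroblast-like clusters differed between libraries, and with the same mix in each library the ratio was 2.01 for Saa3 and 2.07 for Lcn2. The labels name no batch, so that a batch and the animal cannot be told apart here. In macrophage-like cells the ratio was 1.65 for Saa3, at 20.2, 16.6 and 12.2 CPM, against a median of 1.13 over 7781 genes, and 1.08 for Il17ra.

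**Figure D5:**
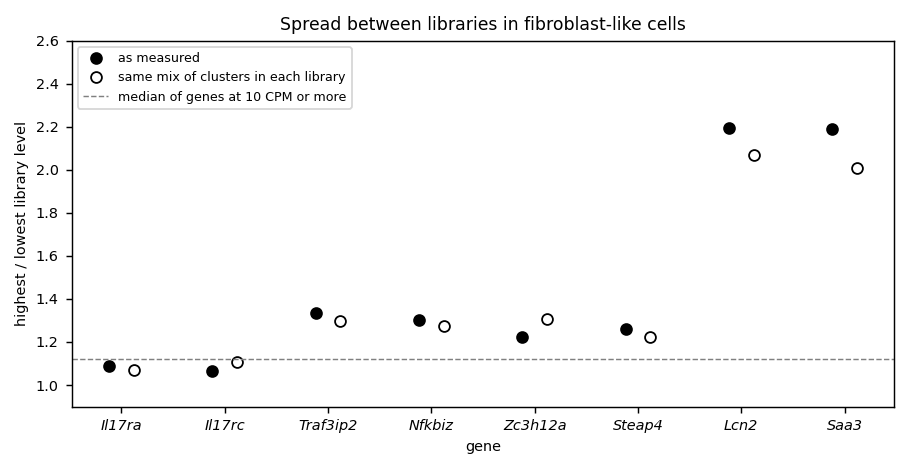
Highest over lowest library level in CPM of each member in fibroblast-like cells, as measured (filled) and with the same mix of fibroblast-like clusters in each library (open). Il17ra and Il17rc lie below the median of 1.12 (dashed), and Lcn2 and Saa3 at 2.19.

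For each member the genes with the most similar level were taken over 39 points, 13 classes in 3 libraries, among 13019 genes, as Pearson's r of log2(CPM + 1). The points share libraries and classes, so r is a description. Il17rc was most like Il17rd, another receptor of the family (r = 0.955), then Dlg5 and Nynrin. Nfkbiz was most like Bcl3, which encodes another nuclear IκB protein (r = 0.938), then Ccnl1 and Pcf11. Steap4 was most like Acta2, smooth muscle actin (r = 0.900), a gene on the mural marker list. Saa3 was most like Cxcl5 (r = 0.841) and Cxcl13, chemokine genes, and Olfr810, an olfactory receptor gene. Il17ra was most like Zbp1, a nucleic acid sensor (r = 0.852), Zc3h12a like Rab8b (r = 0.933), Lcn2 like Wbp1l (r = 0.869) and Traf3ip2 like Zfp369 (r = 0.772). The r of Traf3ip2 was the lowest of the 8.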

How the data were processed

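Single-cell suspensions of 3 libraries were read. The authors deposited raw UMI counts per gene and barcode as filtered matrices of 32285 genes; the software was cellranger 7.0.0 per the file headers but Cell Ranger 6.1.2 per the submitters' processing notes. Not given in the sources used here: genome build, annotation, and whether intronic reads were counted.

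A kept barcode had 500 or more UMIs, 200 or more genes and no more than 20% mitochondrial UMIs, and the highest Scrublet scores, 0.8% per 1000 barcodes, were taken out as doublets (1093 barcodes). No library was left out: pairs of libraries shared 10 to 13 barcodes, and their counts differed by more than sampling noise. Cells were clustered with the Leiden method (scanpy 1.11.5, leidenalg 0.10.2; 2000 variable genes, 30 components, 15 neighbours, resolution 1) after 73 genes, the members and the pathway lists, had been taken out. Clusters were named from 28 marker lists; the limits on the naming score were set after the marker tables had been seen. The 387 cells of 10 unnamed clusters stayed out of the comparisons.

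For each library the counts of each side of a comparison were added up, and the sums were fitted in edgeR 4.0.16 (quasi-likelihood, TMM, filterByExpr, R 4.3.3). The model held the library as a block, because the paired sums share 1 suspension. Sides needed at least 20 cells in every library. Named classes under 20 cells in some library were part of these sums, but not of those with classes weighted equally. P-values were adjusted by the Benjamini-Hochberg method over all genes tested, and a call needed an adjusted p under 0.05 and an absolute log2 of 1. The script was tested on simulated counts. CPM use library totals, whereas fitted log2 differences use TMM, so both need not give the same ratio. A cell was counted as holding a gene with 1 UMI or more after random thinning, and 0.5 was added to each count of an odds ratio, except in the Mantel-Haenszel ratio over clusters, added after seeing the data. DESeq2 1.42.0 and the other alternatives are in the closing section.

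All 8 members are named; of each pathway list the counts and the largest called differences are given, and for each member the most similar genes. Members and lists were chosen with earlier results of these data known.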

Additional observations from a re-analysis of the deposited data

Results flagged for a closer look

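Cells of the 10 unnamed clusters, 387 in all, entered no comparison, and all 8 genes had UMIs in them. Il17ra was at 67.8 CPM there (mean of 3 libraries), Il17rc at 0.723 CPM from 6 UMIs, and Traf3ip2 at 11.1 CPM. Nfkbiz was at 453.6 CPM and Zc3h12a at 119.1 CPM, Zc3h12a thus within the range of the immune-like classes. Steap4 was at 13.4 CPM, Lcn2 at 56.8 CPM and Saa3 at 9.77 CPM. The low Il17rc level beside a high Zc3h12a level was shared with the immune-like classes. Which cells these are was not tested.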

How the results depend on the processing

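The number of genes called stayed within 1.5 times in each of 55 alternative fits. Without the library block the 5 comparisons gave 8710, 5096, 5567, 3684 and 7119 calls in place of 8671, 5108, 5426, 3707 and 7059, and no member's call changed. Of the members' log2 differences under the alternatives, 398 kept direction and side of the threshold, 8 were reversed, 8 lost the call and 4 gained one. With classes weighted equally, Il17ra was called higher on the immune-like side (1.17), and Nfkbiz (0.75), Zc3h12a in fibroblast-like cells (0.026) and Traf3ip2 in endothelial-like cells (0.22) turned positive without a call. Saa3 in neutrophil-like cells was at −0.62 with library totals, −0.073 with no filter on low counts and −0.57 without doublet removal, and lay between −0.34 (without replicate 2) and 0.39 (without replicate 1). The cause was not tested. Library totals moved the median of all genes to −0.22 in the fibroblast-like comparison. Among log2 odds ratios under other settings, 63 moved by more than 1 SD between libraries and 160 did not, and among shares of cells 37 moved and 155 did not. For 1 pair, Il17rc with Lcn2, the value pooled over clusters could not be computed, since replicate 3 held no cell with both. The averages within clusters add 0.5 to sparse tables, which raises them for rare genes, and are not quoted. Depth limits Traf3ip2 in neutrophil-like cells, which rests on 10 UMIs, and Il17rc in muscle fibre-like cells. Co-detection is limited by sampling of 5000 UMIs per cell, and 3 libraries of 1 group allow no statement on an effect of the implant.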
